A study of Mus musculus with 10 samples.

Results

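The genes described here are the mouse genes that inactivate alkylating agents or carry drugs and metabolites out of the cell. They were taken by symbol as every protein-coding gene of the GENCODE annotation of mm9 whose name begins with Aldh, Gst, Abcb, Abcc or Abcg. The rule gave 69 members among 22380 protein-coding genes, namely 20 Aldh, 23 Gst, 10 Abcb, 10 Abcc and 6 Abcg genes. It used names only and no measured value, and it also takes in family members with no known part in drug handling.

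Cyclophosphamide and its analogue mafosfamide give rise to aldophosphamide, which either breaks down to the DNA-alkylating phosphoramide mustard or is oxidised by aldehyde dehydrogenases to an inactive acid. Glutathione S-transferases couple electrophiles to glutathione, and transporters of the Abcb, Abcc and Abcg families pump drugs, conjugates, lipids and other substrates across membranes. H3K27me3, the trimethyl mark placed on histone H3 by the polycomb repressive complex 2, is found at promoters of silent genes.

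H3K27me3 was mapped by ChIP-seq in 5 B-cell lymphoma lines, with the question of where the mark was acquired or lost as cells were selected in mafosfamide. All lines share the C57BL/6J strain, the Eμ-Myc transgene, in which an immunoglobulin heavy chain enhancer drives Myc in B-lineage cells, and the Cdkn2a-/- genotype. The parental line came from 1 such mouse and had no selection (0 nM). R100, R500, R1000 and R4000 are sub-clones isolated from it during stepwise culture in 100, 500, 1000 and 4000 nM mafosfamide, at days 10, 18, 23 and 37 as the legend of the study's dose scheme gives them (its methods give a shorter total time). All lines were grown without mafosfamide for the ChIP. Each resistant line stands for a single culture history, so dose, time in culture and the particular sub-clone cannot be told apart.

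The deposited data are 1 peak list per line, in which a peak has a position but neither a height nor a read count. Values given in the order of the lines run from the parental line through R100, R500 and R1000 to R4000. In that order the lists held 10778, 25180, 21888, 9595 and 6820 distinct peaks, covering 1.63, 5.04, 4.53, 1.61 and 1.07 Mb. Sequencing depth is unknown, so a longer list in R100 or R500 and a more sensitive library cannot be told apart, and every comparison between lines below carries that limit. The study describes biological replicates of the ChIP, but a single list per line leaves no spread to judge by, so differences between lines are given as values without a test. Cdkn2a, which all lines lack, had no covered base in its promoter or gene in any list, and this cannot check the labels since the deletion is shared. Among markers of B cells, Cd79a, a subunit of the B-cell receptor, and Blk, a kinase of that receptor, had 0 covered promoter bases in every line. Cd79b, the partner of Cd79a, had 0, 1000, 150, 150 and 0 in the order of the lines. Ebf1, a transcription factor of early B cells, had 0, 269, 100, 0 and 0. Cd22 had 150 in R500 alone, and Pax5 had 50 in R1000 and in R4000 and 0 in the other lines. Cd79b, Ebf1 and Cd22 thus each had at least 150 covered promoter bases in R100 or R500. None of the 5 T-cell or 4 myeloid markers had a covered promoter (defined below) in any line. Any covered promoter base was found for 3 T-cell markers (60%) and 1 myeloid marker (25%), against 34.9% of all protein-coding genes. Cd3d and Cd3g had 50 in R500, Cd4 had 100 in R100, and Lyz2 had 50 in the parental line. The lists hold no expression, so identity of the cells was not checked further.

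For each gene, the promoter was taken as 2 kb on each side of the transcription start site (TSS), the 5′ end of the gene in the annotation. Covered bases are the bases of that window or of the gene that lie in peaks. A promoter was called covered where peaks held at least 150 bp of it, equal to 3 bins of 50 bp.

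The following stretches of 200 bases lie outside exons in the covered promoters of Aldh1a2, Aldh5a1, Aldh1l2, Abcg1 and Gsto1, the 5 members with the most covered promoter bases in any line. In each promoter the 200 bases outside exons with the most coverage summed over the 5 lines were taken, so their high coverage follows from the choice. They are shown because they carry the patterns described below, from a stretch covered in every list to one covered in R100 and R500 alone. The sequence is that of NCBIM37 (mm9) on the strand of the gene, 5′ to 3′, with each CG dinucleotide in capitals.
Aldh1a2: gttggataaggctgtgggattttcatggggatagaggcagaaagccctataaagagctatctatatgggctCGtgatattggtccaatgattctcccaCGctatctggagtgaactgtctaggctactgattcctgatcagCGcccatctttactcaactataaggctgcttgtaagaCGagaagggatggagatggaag
Aldh5a1: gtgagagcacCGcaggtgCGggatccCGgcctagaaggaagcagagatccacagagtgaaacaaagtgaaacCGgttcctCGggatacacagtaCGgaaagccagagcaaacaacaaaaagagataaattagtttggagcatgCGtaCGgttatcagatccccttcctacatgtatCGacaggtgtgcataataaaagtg
Aldh1l2: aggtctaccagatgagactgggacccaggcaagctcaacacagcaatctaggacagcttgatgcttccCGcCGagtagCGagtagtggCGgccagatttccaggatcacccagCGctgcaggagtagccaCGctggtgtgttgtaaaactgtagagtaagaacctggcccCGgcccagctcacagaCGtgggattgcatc
Abcg1: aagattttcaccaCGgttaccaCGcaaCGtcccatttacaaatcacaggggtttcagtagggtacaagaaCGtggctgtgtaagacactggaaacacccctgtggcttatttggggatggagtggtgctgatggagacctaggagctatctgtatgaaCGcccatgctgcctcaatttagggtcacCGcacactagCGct
Gsto1: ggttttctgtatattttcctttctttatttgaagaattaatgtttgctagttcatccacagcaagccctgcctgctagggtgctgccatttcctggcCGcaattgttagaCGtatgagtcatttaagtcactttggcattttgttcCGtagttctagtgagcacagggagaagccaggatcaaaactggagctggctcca

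The Aldh1a2 stretch is chr9:71062751-71062950 on the plus strand, -845 to -646 from the TSS and between genes, with 4 CG dinucleotides. All of its 200 bases were covered in each of the 5 lines. The Aldh5a1 stretch is chr13:25028920-25029119 on the minus strand, +411 to +610 in an intron of Aldh5a1, with 9 CG dinucleotides. Its covered bases numbered 69, 119, 119, 69 and 0 in the order of the lines. The Aldh1l2 stretch is chr10:82996141-82996340 on the minus strand, +545 to +744 in an intron of Aldh1l2, with 8 CG dinucleotides. It was covered over all 200 bases in R100 and R500 and over 0 in the other lines. The Abcg1 stretch is chr17:31194051-31194250 on the plus strand, -592 to -393 and between genes, with 7 CG dinucleotides. It was covered whole in the parental line, R100 and R500 and over 50 bases in R1000 and in R4000. These were not the same bases, at chr17:31194201-31194250 in R1000 and chr17:31194051-31194100 in R4000. The Gsto1 stretch is chr19:47928451-47928650 on the plus strand, -1009 to -810 from the TSS of Gsto1 and inside an intron of Wdr96, with 3 CG dinucleotides. It held 150, 100, 200, 100 and 0 covered bases in the order of the lines. Over 447600 windows of the same length in all protein-coding promoters, the median was 2 CG dinucleotides, 82.97% of windows held at least 1, and 15.02% held at least 9. Those windows were not picked by coverage, so they give a scale and not a like comparison.

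Most of these genes lay outside H3K27me3 peaks, and more of them were covered in R100 and R500 than in the parental line, R1000 or R4000. In the parental line 6 of 69 members had a covered promoter, or 8.70% (95% Wilson interval 4.05 to 17.7%), where 5.25% of all protein-coding genes did. R100 had 17, or 24.6% (16.0 to 36.0%), against 17.4% of all genes. R500 had 12, or 17.4% (10.2 to 27.98%), against 13.3%. R1000 had 5, or 7.25% (3.13 to 15.9%), against 6.92%, and R4000 had 1, or 1.45% (0.256 to 7.76%), against 5.5%. The share of all genes lay inside the members' interval in every line. With the 6820 widest peaks of every list the counts were 6, 8, 11, 4 and 1 in the order of the lines, so that R500 and not R100 was the highest, whereas over all genes the shares were 4.84%, 11.8%, 10.3%, 6.44% and 5.50%, with R100 still highest. Peaks tied in width at the cut were kept by chromosome name, so which of them stayed depended on where they lie. With all peaks of at least 200 bp, the narrowest width kept in R100, R100 had 10 covered members (12.5% of all genes) and R500 had 11 (10.1%). In a window of 5 kb before the TSS the counts were 5, 7, 8, 4 and 1, beside 3.64%, 9.13%, 8.16%, 3.93% and 2.73% of all genes. The intervals cover counting of genes only, and members in clusters on 1 chromosome are not independent. The median member promoter had 0 covered bases in every line, as did the median over all genes.

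A covered promoter was found in at least 1 line for 19 members (27.5%), against 20.1% of all protein-coding genes. A promoter covered in R100 or R500 but not in the parental line, called gained here, was found for 13 members (18.8%), where 14.3% of all genes met the same rule. R100 gained 11 members beside 12.4% of all genes, or 15.9% of the members. R500 gained 7 (10.1%) beside 8.24% of all genes, and 5 were gained in both (7.25%) beside 6.26%. R1000 gained 1 member, Aldh1l2, where 2.64% of all genes were gained, and R4000 gained 0, where 2.12% were. Only 1 member, Aldh1a2, was covered in all 5 lines, where 3.17% of all genes were. Abcc3 and Gstt1 were covered in the parental list but not in R1000 or R4000, a pattern of 0.782% of all genes. Coverage in R100 alone was found for 6 members, where 5.63% of all genes had it, and in R500 alone for 2, where 1.75% had it. Of the 13 gained members, 1 was also covered in R1000 and 0 in R4000, beside 2.41% and 1.84% of all genes that were gained and covered there. As shares of the gained genes this was 7.69% and 0% of the members, against 540 of 3209 gained genes (16.8%) in R1000 and 412 (12.8%) in R4000 over all protein-coding genes.

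**Figure D1:**
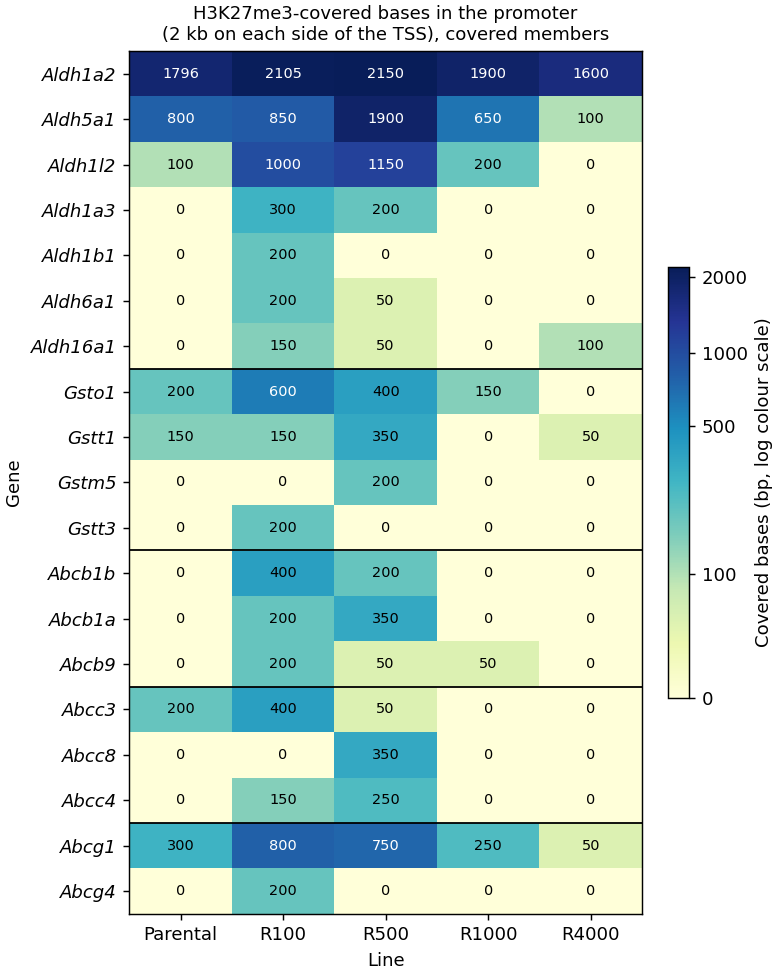
Covered promoter bases (bp, 2 kb on each side of the TSS) of the 19 members with at least 150 bp in at least 1 line, by gene (rows, grouped by family) and line (columns), with the value printed in each cell and colour on a log scale. Aldh1a2 holds between 1600 and 2150 bp in every line, while Abcb1a, Abcb1b, Abcc4 and Aldh1a3 have values above 0 in R100 and R500 only.

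The count of members with more covered promoter bases than the parental line was 22 in R100 (31.9%, against 27.6% of all protein-coding genes) and 24 in R500 (34.8% against 20.7%). The count with fewer was 0 in R100, where 0.952% of all genes had fewer, and 1 in R500, Abcc3, where 1.10% did. Between R500 and R100 the members split almost evenly, with 12 higher in R500 (17.4% against 10.2% of all genes) and 13 higher in R100 (18.8% against 20.2%). In R1000, 4 members had more bases than in the parental line (5.80% against 9.74% of all genes) and 5 had fewer (7.25% against 4.21%). In R4000, 1 member had more, Aldh16a1 (1.45% against 7.57%), and 7 had fewer (10.1% against 5.67%).

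Aldehyde dehydrogenases included 7 of the 19 members covered in at least 1 line, or 35% of the Aldh genes against 20.1% of all protein-coding genes. Of 20 Aldh genes, 2, 7, 4, 3 and 1 were covered in the order of the lines. This was 10%, 35%, 20%, 15% and 5%, beside 5.25%, 17.4%, 13.3%, 6.92% and 5.5% of all genes. Aldh1a1 and Aldh3a1, the enzymes best known for oxidising aldophosphamide, had 0 covered bases in promoter and gene in all 5 lines, and so did Aldh2, the mitochondrial enzyme that clears acetaldehyde.

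Aldh1a2 (chr9:71063596-71144050, plus strand), which makes retinoic acid from retinaldehyde, had 1796, 2105, 2150, 1900 and 1600 covered promoter bases. It was the member with the most covered bases in each list. The bases downstream of the TSS numbered 1346, 1355, 1505, 1305 and 1150, and those upstream 450, 750, 645, 595 and 450. A region of 1450 bp, chr9:71063551-71065000, reached over the TSS and held 950, 1200, 1450, 1100 and 1150 covered bases in the order of the lines. Peaks inside the gene as a whole covered 2400, 2105, 2155, 1655 and 1350 bp. Aldh1a2 made up 50.6%, 24.8%, 23.8%, 58.5% and 84.2% of all covered member promoter bases.

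Aldh5a1 (chr13:24999448-25029530, minus strand), the succinic semialdehyde dehydrogenase of GABA breakdown, had 800, 850, 1900, 650 and 100 covered promoter bases. R500 was the highest and R4000 the lowest. Its upstream bases numbered 650, 500, 900, 500 and 100, and its downstream bases 150, 350, 1000, 150 and 0. A lincRNA, 9330162012Rik, runs the other way from within the first part of the gene, and the peaks downstream of the Aldh5a1 TSS lay nearer to the start of that lincRNA.

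Aldh1l2 (chr10:82950195-82996885, minus strand), a mitochondrial enzyme of folate metabolism that oxidises formyl-tetrahydrofolate, had 100, 1000, 1150, 200 and 0 covered promoter bases. R100 and R500 were both far above the other 3 lines. Downstream of the TSS the covered bases numbered 0, 550, 1000, 200 and 0. The widest region there, chr10:82996001-82996850, was covered over 450 bp in R100 and 850 bp in R500 and over 0 in the parental line, R1000 and R4000. The 200 bp of R1000 lay farther into the gene, of which 100 bp fell in a region that also held peaks of R100 and R500.

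The other covered Aldh promoters had few bases. Aldh1a3 (chr7:73535778-73572403), the related retinaldehyde dehydrogenase, had 0, 300, 200, 0 and 0 bp. Aldh1b1, a mitochondrial aldehyde dehydrogenase, had 200 bp in R100 alone. Aldh6a1, which acts in valine and thymine breakdown, had 0, 200, 50, 0 and 0 bp, and its peaks lay nearer to the start of Lin52. Aldh16a1 had 0, 150, 50, 0 and 100 bp, nearer to the start of Pih1d1. Below the minimum, Aldh3a2, a fatty aldehyde dehydrogenase, had 100 bp in R100 and in R500, and Aldh7a1, an enzyme of lysine breakdown, had 100 bp in R100 and 50 bp in R500.

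**Figure D2:**
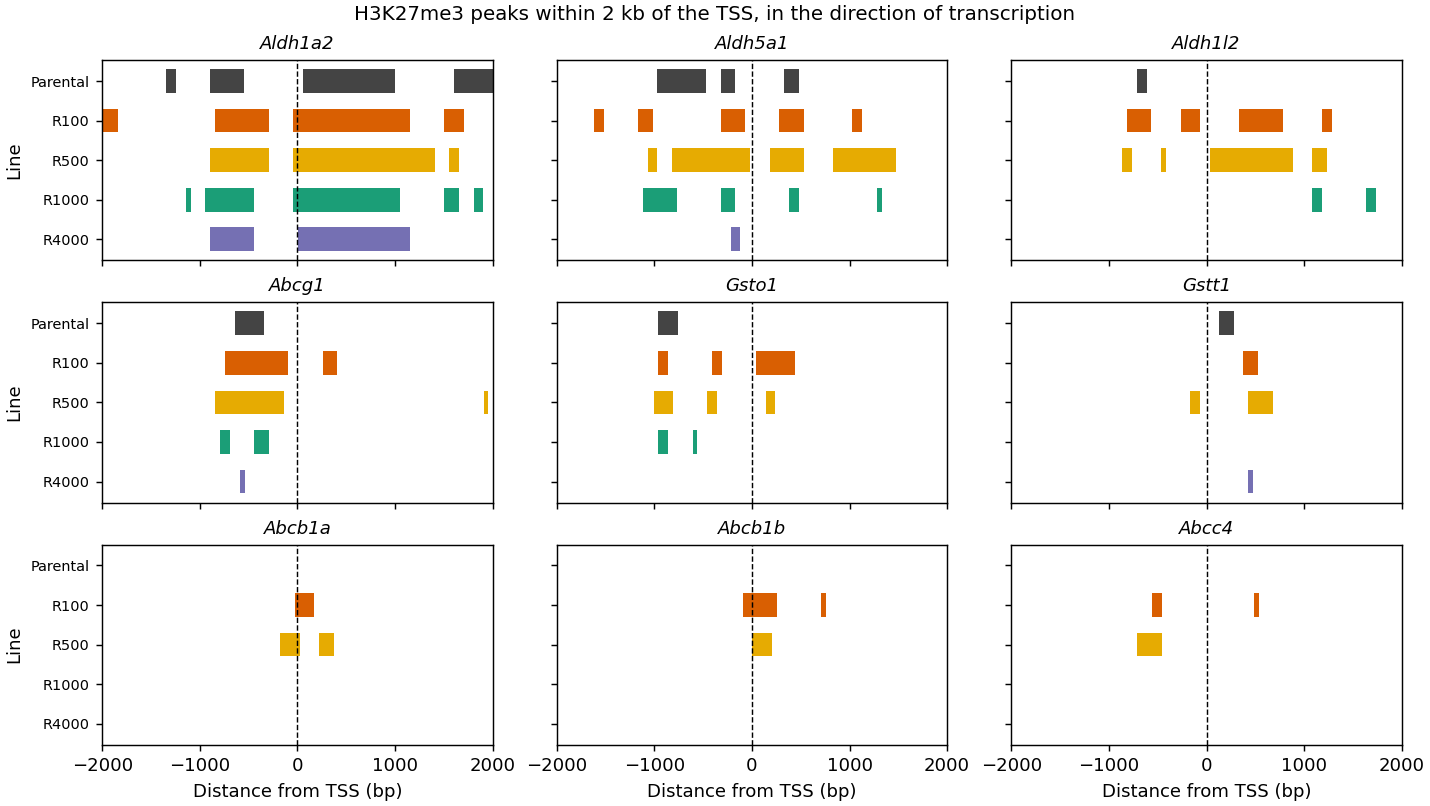
H3K27me3 peaks as bars by line (rows) and distance from the TSS (bp, in the direction of transcription, negative upstream) for 9 members, with the TSS as a dashed line. Aldh1a2 has a long bar downstream of the TSS in all 5 lines, whereas Abcb1a, Abcb1b and Abcc4 have bars in R100 and R500 and none in the other 3 lines.

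Glutathione S-transferases included 4 of the 19, or 17.4% of the Gst genes against 20.1% of all protein-coding genes. Of 23 Gst genes, 2, 3, 3, 1 and 0 were covered in the order of the lines. This was 8.70%, 13.0%, 13.0%, 4.35% and 0%, beside 5.25%, 17.4%, 13.3%, 6.92% and 5.5% of all genes. Gstp1 and Gstp2 of the pi class, Gsta1 of the alpha class and Gstm1 of the mu class had 0 covered bases in promoter and gene in every line. Of the 50-base words in the promoter window, only 37.2% occur once in the genome for Gsta1 and 72.5% for Gstp2. Reads there could be placed less surely, so the lack of peaks at these 2 genes says less. Gsta4, an alpha-class enzyme that conjugates lipid aldehydes, had 50 bp in R100 and 50 bp in R500.

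Gsto1 (chr19:47929460-47939280, plus strand), an omega-class transferase, had 200, 600, 400, 150 and 0 covered promoter bases. Its upstream bases were alike in number in the first lines, at 200, 200, 300, 150 and 0, whereas downstream of the TSS only R100 (400 bp) and R500 (100 bp) had any. Gstt1 (chr10:75246558-75261329, minus strand), a theta-class enzyme that acts on small halogenated compounds, had 150, 150, 350, 0 and 50 bp. The parental peak of Gstt1, chr10:75261051-75261200, was covered in no other list, and the bases of R100, R500 and R4000 fell in other stretches. Gstm5 had 200 bp in R500 alone, of which 150 bp lay nearer to the start of the lincRNA 4933431E20Rik. Gstt3 had 200 bp in R100 alone, nearer to the start of the protein-coding gene RP23-333M15.8.

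Of the 10 Abcb genes, 0, 3, 2, 0 and 0 were covered in the order of the lines. This was 0%, 30%, 20%, 0% and 0%, beside 5.25%, 17.4%, 13.3%, 6.92% and 5.5% of all genes. Abcb1a and Abcb1b are the mouse genes of P-glycoprotein, the efflux pump of multidrug resistance. Abcb1a (chr5:8660077-8748575, plus strand) had 0, 200, 350, 0 and 0 covered promoter bases, and Abcb1b (chr5:8798147-8866314, plus strand) had 0, 400, 200, 0 and 0. At Abcb1a a peak of R100 (-26 to +173) and one of R500 (-176 to +23) crossed the TSS, and R500 had a second peak at +224 to +373. At Abcb1b the R100 peak at -96 to +253 crossed it, the R500 peak lay just downstream at +4 to +203, and R100 had a second peak at +704 to +753. A region of 350 bp at Abcb1a, chr5:8659901-8660250, was covered over 200 bp in R100 and 200 bp in R500, and one at Abcb1b, chr5:8798051-8798400, over 350 bp and 200 bp. Of the 50-base words in the Abcb1a window, 68.9% occur once in the genome, against 99.3% for Abcb1b, so reads at Abcb1a could be placed less surely. Abcb9, a peptide transporter of lysosomes, had 0, 200, 50, 50 and 0 bp, at 3 separate positions.

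Of the 10 Abcc genes, which include the multidrug resistance-associated proteins, 1, 2, 2, 0 and 0 were covered. This was 10%, 20%, 20%, 0% and 0%, beside 5.25%, 17.4%, 13.3%, 6.92% and 5.5% of all genes. Abcc3 (chr11:94204612-94254311, minus strand), an exporter of organic anions and glucuronides, had 200, 400, 50, 0 and 0 bp. It was the only member with fewer covered promoter bases in R500 than in the parental line. Abcc4 (chr14:118881914-119105441, minus strand), an exporter of cyclic nucleotides and other organic anions, had 0, 150, 250, 0 and 0 bp. Abcc8 (chr7:53359893-53435403, minus strand), the sulphonylurea receptor of the pancreatic potassium channel, had 350 bp in R500 alone. Abcc1, an exporter of glutathione conjugates, had 100 bp in R500 alone, and Abcc2, its counterpart in the bile duct membrane of liver cells, had 50 bp in R500 alone. These are promoter bases. The gene of Abcc8 held 50 bp in R100 and 550 bp in R500, and that of Abcc2 held 50 bp in R100 and 200 bp in R500.

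Of the 6 Abcg genes, 1, 2, 1, 1 and 0 were covered. This was 16.7%, 33.3%, 16.7%, 16.7% and 0%, beside 5.25%, 17.4%, 13.3%, 6.92% and 5.5% of all genes. Abcg1 (chr17:31194643-31252722, plus strand), a cholesterol exporter, had 300, 800, 750, 250 and 50 covered promoter bases. Nearly all were upstream, at 300, 650, 700, 250 and 50 bp, in 1 region where every line had at least 1 peak. The bases of R1000 and R4000 in that region were not the same. Abcg4, a related sterol transporter, had 200 bp in R100 alone. Abcg2, the breast cancer resistance protein, had 0 covered promoter bases in all lines. The gene of Abcg2 held 0, 200, 50, 50 and 0 bp. Of the 50-base words in the Abcg2 promoter window, 76.3% occur once in the genome, so the lack of promoter peaks says less there.

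Of the 50 members not covered in any line, 11 had 50 or 100 promoter bases in at least 1 line and 39 had 0 in every line. For 35 members there was no covered base in promoter or gene in any of the 5 lists. The share of all protein-coding genes meeting that rule was not counted, so the 35 cannot be read as particular to the members. Any covered promoter base at all was found for 30 members (43.5%), against 34.9% of all protein-coding genes.

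Summed over the merged 276 kb of member promoters, peaks covered 3546, 8505, 9050, 3250 and 1900 bp in the order of the lines. Per kb of promoter this was 12.8, 30.8, 32.8, 11.8 and 6.88 bp, where all protein-coding promoters had 7.99, 30.6, 26.3, 10.4 and 7.39 bp. The ratios to the parental line were 2.40, 2.55, 0.917 and 0.536 for the members and 3.83, 3.30, 1.30 and 0.925 for all genes. Without Aldh1a2 the members had 6.43, 23.5, 25.4, 4.96 and 1.10 bp per kb, which was below the value of all genes in each of the 5 lines. With Aldh1a2 the members were below all genes in R4000 only. The comparison is uneven, since the most covered member was left out while all genes kept their most covered ones, Aldh1a2 included. The ratios to the parental line without it were 3.66, 3.94, 0.771 and 0.171. By family, the Aldh promoters had the most covered bases per kb in each line, at 33.7, 62.5, 70.6, 34.4 and 22.5 bp, but without Aldh1a2 they had 11.8, 38.1, 46.0, 11.2 and 2.63 bp, and the 6 Abcg promoters, at 12.5, 41.7, 31.2, 10.4 and 2.08 bp, were then higher in the parental line and R100. The Gst promoters had 3.80, 11.4, 13.0, 1.63 and 0.543 bp per kb.

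**Figure D3:**
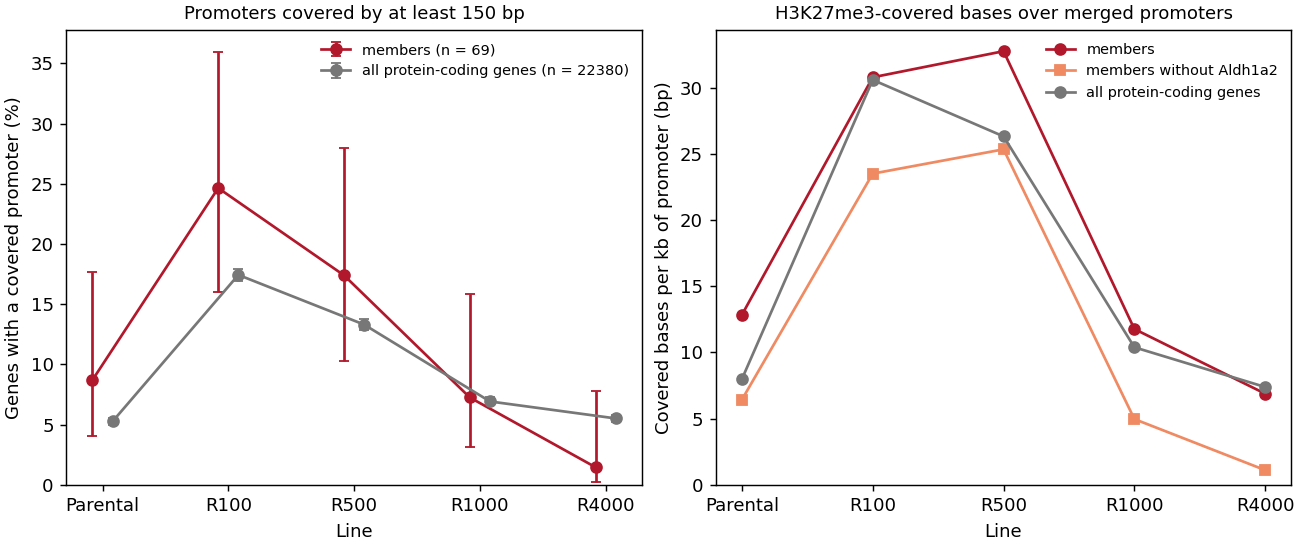
Left, share of genes with a covered promoter (%) by line for the 69 members and all 22380 protein-coding genes, with 95% Wilson intervals as bars. Right, covered bases per kb of merged promoter (bp) for the members, the members without Aldh1a2 and all protein-coding genes. The members' share is highest in R100 (24.6%) and lowest in R4000 (1.45%). Without Aldh1a2 the covered bases per kb of the members lie below those of all genes in every line, and in R4000 they do so with it too.

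Over the merged member genes, 2856 kb in all, peaks covered 2950, 7190, 7429, 2305 and 1500 bp. Aldh1a2 again held much of this, since without it the values were 550, 5085, 5274, 650 and 150 bp. R1000 was then above the parental line, whereas it was below it with Aldh1a2 included.

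The covered stretches of member promoters formed 66 regions when the lists were joined. Each region was counted over its whole length, also where it ran past the promoter window. Of these, 18 were found in R100 alone (27.3%, against 31.5% of 16465 such regions in all protein-coding promoters) and 15 in R500 alone (22.7% against 19.6%). R100 and R500 together, and no other line, held 12 (18.2% against 9.24%), among them those of Abcb1a, Abcb1b, Abcc4 and Aldh1l2 given above. Another of the 12 was chr9:71061301-71061750 at Aldh1a2, where the 100 bp of R500 lay outside the promoter window. All 5 lines had peaks in 5 regions (7.58% against 6.49%), of which 3 were at Aldh1a2, 1 at Aldh5a1 and 1 at Abcg1. A region joins overlapping peaks, so lines with peaks in the same region need not share bases. At Abcg1 the peaks of R1000 (chr17:31193851-31193950 and chr17:31194201-31194350) and of R4000 (chr17:31194051-31194100) had no base in common. At Aldh5a1 this was chr13:25029551-25030700, upstream of and close to the TSS, with 650, 400, 900, 500 and 100 covered bases. In 1 of the 3 regions at Aldh1a2, chr9:71065101-71065850, the 200 bp of R4000 lay outside the promoter window. Within the window R4000 thus had no peak in that region. The bases of R4000 in that region were in no peak of R100, R500 or R1000. R1000 alone held 5 regions with a median width of 50 bp, and the parental line alone held 3.

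R100 and R500 covered similar numbers of member promoter bases but shared only part of them. The 4700 bp in both lists were 55.3% of the bases of R100 and 51.9% of those of R500, where over all protein-coding promoters the shared bases were 54.5% and 63.3%. The bases of R4000 lay within those of the low-dose lines, 97.4% of them in R100 and 97.4% in R500, and 84.2% of them were at Aldh1a2. Over all promoters, 74.8% of the R4000 bases were in R100 and 74.1% in R500. The parental line and R1000 shared 2100 bp, or 59.2% of the parental bases and 64.6% of those of R1000.

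Member promoters held 13, 44, 40, 17 and 6 peaks in the order of the lines, with median widths of 150, 125, 100, 100 and 100 bp. The widest in each list measured 950, 1200, 1450, 1100 and 1150 bp, and each was at Aldh1a2. Introns held 50.1%, 47.9%, 50.1%, 50.7% and 59.6% of the covered bases, and intergenic sequence 25.3%, 29.9%, 26.8%, 27.5% and 26.3%. Coding exons held 7.17%, 6.09%, 5.48%, 4.55% and 6.16%. For 12 of 13 parental peaks the nearest annotated start was that of the member itself, as for 36 of 44 peaks of R100, 34 of 40 of R500, 15 of 17 of R1000 and 5 of 6 of R4000.

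Several members lie side by side, so that 1 stretch of chromatin stands for more than 1 gene. The largest cluster, 7 Gstm genes over 149 kb of chromosome 3 from Gstm5 to Gstm4, held 0, 100, 250, 0 and 0 covered bases in the order of the lines. The Gstt cluster of 4 genes over 60.8 kb of chromosome 10 held 150, 400, 400, 0 and 50 bp. The 4 genes from Aldh3b1 to Gstp2, over 129 kb of chromosome 19, held 50, 450, 550, 100 and 100 bp, none of it in those promoters or genes. The P-glycoprotein cluster of Abcb1a, Abcb1b and Abcb4, over 299 kb of chromosome 5, held 0, 574, 374, 0 and 0 bp. The pairs Aldh1a1 and Aldh1a7, and Abcg5 and Abcg8, held 0 in every line over 126 kb and 42.1 kb.

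Member promoters were poorer in CpG than promoters in general. The ratio of observed to expected CpG in 500 bp on each side of the TSS had a median of 0.478 in the members and 0.549 in all protein-coding genes, and 23 members (33.3%) had a ratio of at least 0.6 against 45.6% of all genes. Covered members had a median ratio of 0.558 and the 50 others 0.358, where covered genes overall had 0.742 and uncovered genes 0.428. At a ratio of 0.6 or more, 4, 8, 8, 4 and 1 of 23 members were covered in the order of the lines, or 17.4%, 34.8%, 34.8%, 17.4% and 4.35%, against 8.60%, 29.2%, 21.9%, 11.9% and 9.93% of all such genes. Under 0.6, 2, 9, 4, 1 and 0 of 46 members were covered, or 4.35%, 19.6%, 8.70%, 2.17% and 0%, against 2.45%, 7.53%, 6.09%, 2.71% and 1.79%. In R100 the covered members were thus spread over CpG-rich and CpG-poor promoters, 8 and 9, whereas 76.5% of all genes covered in R100 had a ratio of at least 0.6.

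**Figure D4:**
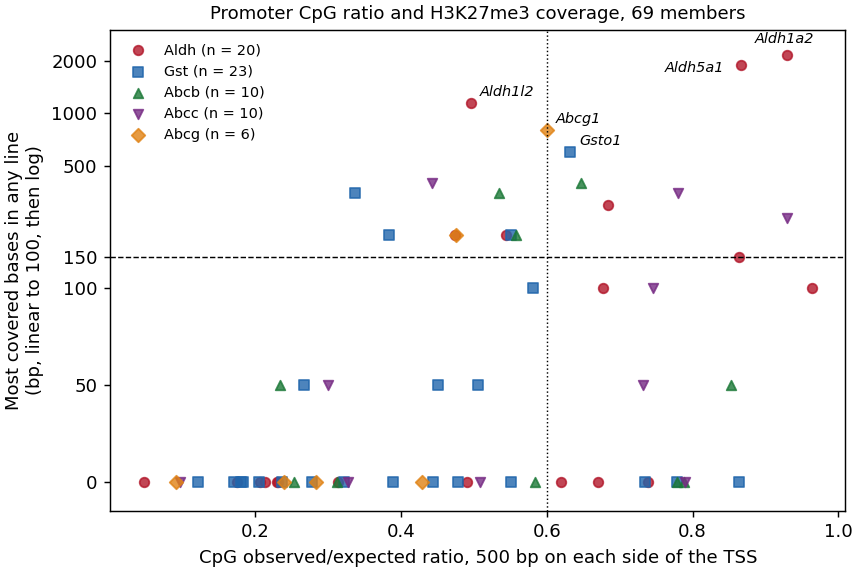
Most covered promoter bases in any line (bp, linear to 100 and then log) against the CpG observed/expected ratio of the promoter for the 69 members, with the family as symbol. Dashed and dotted lines mark 150 bp and a ratio of 0.6. Of the 19 members at or above 150 bp, 9 have a ratio of at least 0.6, Aldh1a2 and Aldh5a1 among them, while Aldh1l2 lies below it.

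The antioxidant response element, the binding motif of Nrf2 in promoters of detoxification genes, was searched as TGACNNNGC on both strands from 250 bases before to 50 after the TSS. It was found in 12 members (17.4%) and in 12.5% of all protein-coding promoters. Among the 19 covered members 4 held it (21.1%), Abcc4, Abcg4, Aldh1a2 and Gstm5, and among the 50 others 8 did (16.0%). Over all protein-coding genes the shares were 13.5% of covered and 12.3% of uncovered promoters. A link between motif and coverage was not tested. A match is a description of the sequence and not a bound site.

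Other genes of the same pathways were counted alike. Of 23 genes of glutathione and the Nrf2 response, 4, 6, 9, 4 and 2 were covered in the order of the lines, and 6 were gained in R100 or R500. This was 17.4%, 26.1%, 39.1%, 17.4% and 8.70% of the list covered and 26.1% gained, beside the 5.25%, 17.4%, 13.3%, 6.92% and 5.5% covered and 14.3% gained over all genes. Mt1, a metallothionein that binds metals and electrophiles, had 700, 1400, 1450, 400 and 700 promoter bases, and Mt2, its neighbour, had 550, 1700, 1500, 800 and 550. Gpx1, a glutathione peroxidase, had 0, 400, 500, 100 and 0. Ggt1, which cleaves extracellular glutathione, had 50, 900, 802, 0 and 100. These examples are among the most covered of the list and were picked after their values were seen. Any covered promoter base was found for 10 of the 23 genes (43.5%, against 34.9% of all genes). Gclc, Gclm, Gss, Nfe2l2, Nqo1 and Slc7a11 had 0 in every line. Among 24 other ABC genes, 1, 5, 3, 4 and 1 were covered (4.17%, 20.8%, 12.5%, 16.7% and 4.17%) and 5 gained (20.8%). Abca5 was covered in all lines, at 350, 750, 750, 600 and 400 bp. Of 24 Adh and Akr1 genes, which reduce or oxidise alcohols and carbonyls, 0, 3, 2, 0 and 0 were covered (12.5% in R100 and 8.33% in R500) and 4 gained (16.7%). Of 29 genes of the Cyp2b, Cyp2c and Cyp3a families, whose liver enzymes activate cyclophosphamide, 0 had a covered promoter base in any line. Over all protein-coding genes 34.9% had one. How many of their 50-base words occur once in the genome was not counted outside the members, so how surely reads could be placed there is unknown.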

How the data were processed

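H3K27me3 ChIP-seq of 5 lines was analysed. RRBS of the same lines was not analysed here. The authors sequenced 50-base reads of immunoprecipitated and input libraries, called peaks by a Poisson comparison of both in genomic windows, and deposited peak positions in base pairs, with no count or score. Bowtie and mm9 are named in the submitters' processing notes, without a version. The study describes 2 replicates per line. The threshold of the deposited lists and whether they pool replicates are not given in the sources used here. The minimum of 3 bins of 50 bp follows the study's criterion for an enriched promoter, whose window lay upstream of the TSS and whose p-value limit per bin could not be applied to lists without scores. Every peak stands 2 times in the lists of R100 (50360 entries) and R500 (43776 entries) and was used once.

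Samples were grouped by title. Covered bases were computed with numpy 2.4.6 and pandas 2.3.3 (Python 3.11.15) over the GENCODE vM1 annotation of NCBIM37, with overlapping windows merged for sums, and sequence was read with pysam 0.24.0 and samtools 1.23.1. Words of 50 bases were counted with numba 0.67.0, Wilson intervals with scipy 1.17.1, and figures were drawn with matplotlib 3.10.9. On simulated data 0 of 4000 windows and 0 of 2951 words differed from a direct count. Named genes are the members with at least 150 bp covered in 1 line, 17 members known from work on alkylating agents, and examples from each pathway list, the last picked after their values were seen. The members and lists were chosen with earlier results of these data known. No test was made, since there is 1 list per line and depth is unknown. Intervals cover counting error only. Alternatives were other windows and minimums, wider peaks, lists of equal number, any transcript start, members with a window of their own, members with unique words, and members left out. The value of 1 B-cell marker is not reported here.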

Additional observations from a re-analysis of the deposited data

Results flagged for a closer look

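Each resistant line was set beside the parental line, and the values of R100 and R500 were higher while those of R1000 and R4000 were lower. These differences were not tested, since there is 1 list per line. R100 had 11 and R500 had 6 more covered member promoters than the parental line, whereas the difference was -1 in R1000 and -5 in R4000. Over all protein-coding genes the covered share was above the parental 5.25% in each resistant line, at 17.4%, 13.3%, 6.92% and 5.5%. With a minimum of 50 bp the member counts of the parental line and R1000 were equal at 7, and with 500 bp equal at 2. The shares of all genes in these 2 lines were 8.24% and 12.5% with 50 bp, and 2.31% and 2.85% with 500 bp. Covered bases of member promoters were higher by 4959 in R100 and 5504 in R500, and the differences in R1000 and R4000 were -296 and -1646. Over all protein-coding promoters the ratios to the parental line were 3.83, 3.30, 1.30 and 0.925 from R100 to R4000. Over member genes they were higher by 4240 in R100 and 4479 in R500, and the differences in R1000 and R4000 were -645 and -1450. Without Aldh1a2 the sign for member genes in R1000 turned, with 650 bp against 550 bp in the parental line. The lists of R100 and R500 are also the longest and that of R4000 the shortest, and the part of list length in these differences was not tested beyond the lists of equal number given below.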

How the results depend on the processing

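Of 117 values under another setting, 80 stayed within 1.5 times the reported value and 37 did not. None moved with promoters of 1 kb on each side, with any transcript start, with the 64 members whose 50-base words are at least 80% unique, or without Aldh16a1, Aldh6a1, Gstt3, Gstm5 and Aldh5a1. Keeping members with a window of their own left all 69 in place, since no windows overlap, so its 8 values among the 80 could not move. Leaving out those 5 members and removing Aldh1a2 were chosen after seeing the data.

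With a minimum of 50 bp, R500 had 25 and R4000 had 5 covered members of 69, beside 21.3% and 11.1% of all protein-coding genes. In R100 or R500, 22 were gained (24.5% of all genes), and 3 were covered in all lines (5.00% of all genes). Coverage in the parental list but not in R1000 or R4000 was found for 1, beside 1.35% of all genes. With a minimum of 500 bp there were 2, 5, 4 and 2 covered members from the parental line to R1000, with 3 gained and 0 covered in the parental list but not in R1000 or R4000. Over all genes the shares were 2.31%, 7.56%, 6.81% and 2.85%, with 6.11% gained and 0.398% of the last pattern. With the 5 kb upstream, R100 had 7, 5 were gained and 1 was covered in the parental list but not in R1000 or R4000. The shares of all genes were 9.13%, 7.57% and 0.970%. Promoter bases of the members with this window were 2200, 3760, 4121, 1695 and 600 in the order of the lines. With peaks at least 200 bp wide, R100 had 10 and R1000 had 2 covered members, beside 12.5% and 4.71% of all genes. R1000 then had 1950 promoter bases, and gene bases were 1750, 3933, 4829 and 1255 from the parental line to R1000. Among the 6820 widest peaks of each list, R100 had 8 covered members and 7 were gained, beside 11.8% and 9.12% of all genes. Peaks tied in width at the cut were kept in order of chromosome name and position. R100 then had 5305 promoter bases and 3159 gene bases, and R500 had 4829 gene bases. Without Aldh1a2, promoter bases were 1750 in the parental line, 1350 in R1000 and 300 in R4000, and gene bases were 550, 650 and 150. Stricter settings keep fewer peaks, bases or genes by construction, and the lower minimum counts more promoters.

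Depth is unknown, lists hold no height and there is no separate list per replicate, so list length, library sensitivity and amount of H3K27me3 cannot be told apart between lines. Of the 19 covered members, 7 have at most 200 bp in any line. Leaving out a replicate was not possible. No paired analysis was possible because each line has 1 list and no test was made.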
